A study of Mus musculus with 6 samples.

Results

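Wild-type megakaryocyte-erythroid progenitors (MEP) were compared with wild-type haematopoietic stem cells (HSC) of the mouse bone marrow, the far ends of the series of 6 populations that the study sorted. The libraries were chosen by their labels and table headers: 3 MEP libraries of the wild-type late progenitor pool and 3 HSC libraries of the wild-type early progenitor pool, 6 of the 36 libraries of the series. Every library came from 15 cells sorted by flow cytometry, frozen and made into RNA-seq libraries with CEL-Seq2, which counts the 3' ends of transcripts. MEP were sorted as lineage-negative, Sca-1-negative, cKit-positive cells without CD34, IL7r and CD16/32. HSC were sorted as lineage-negative, Sca-1-positive, cKit-positive cells (LSK) without CD34, Flt3 and CD48 and with CD150. The other genotype of the study is Mof heterozygous (Mof is another name of the histone acetyltransferase gene Kat8, and the labels do not name the allele). Its 3 MEP and 3 HSC libraries served as libraries that the wild-type comparison does not use. Neither the age of the mice nor the number of animals behind the libraries is stated in the sources used here. The p-values therefore reflect the spread among the libraries alone, and that spread may be technical. MEP and HSC libraries belong to different samples of the series, titled late and early progenitor and called pools here. The labels do not say whether a pool was a sequencing batch. Population and pool cannot be told apart.

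HSC are rare, mostly resting cells that keep all blood lineages going, and transcription factors such as Hlf and Meis1 mark them. MEP divide often and give rise to red cells and platelets. On the red cell path the transcription factors Gata1 and Klf1 switch on the carbonic anhydrase Car1, the haem synthesis genes and, late in maturation, the globins. Metallothioneins such as Mt1 and Mt2 are small proteins that bind zinc and copper. Gimap6 belongs to a family of GTPases known from lymphocytes.

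The recovered totals were 56778, 34996 and 102375 counts in MEP libraries 1, 2 and 3, against 29086, 35094 and 30569 in HSC libraries 1, 2 and 3, with 6421 to 8733 genes detected. A single count was worth 9.77 to 34.4 CPM (counts scaled to a library total of 1000000), so that most low values rest on 1 to 3 counts. Several libraries went against their labels or held genes of other cells. HSC library 3 had no count of the stem cell transcripts Hlf, Angpt1 and Ifitm1, and the 31 listed HSC genes summed to 883 CPM there, against 7495 and 6297 CPM in HSC libraries 1 and 2 and 752 to 1444 CPM in MEP. The same library held 10108 CPM of mature B cell genes, against 103 and 1282 CPM in the other HSC libraries, and MEP libraries 1, 2 and 3 held 493, 8687 and 225 CPM. Mature neutrophil genes summed to 634, 34147 and 11702 CPM in MEP libraries 1, 2 and 3, against 458 to 619 CPM in HSC. The part of these cells or of their RNA in the results below was not tested. Some list medians and counts are given with and without these libraries, though not every list without each library. Kat8 itself had 0, 0 and 2 counts in wild-type MEP and 0, 1 and 1 in wild-type HSC, and 0, 1 and 1 in Mof heterozygous MEP and 1, 0 and 0 in Mof heterozygous HSC, too few to check the genotype.

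**Figure D1:**
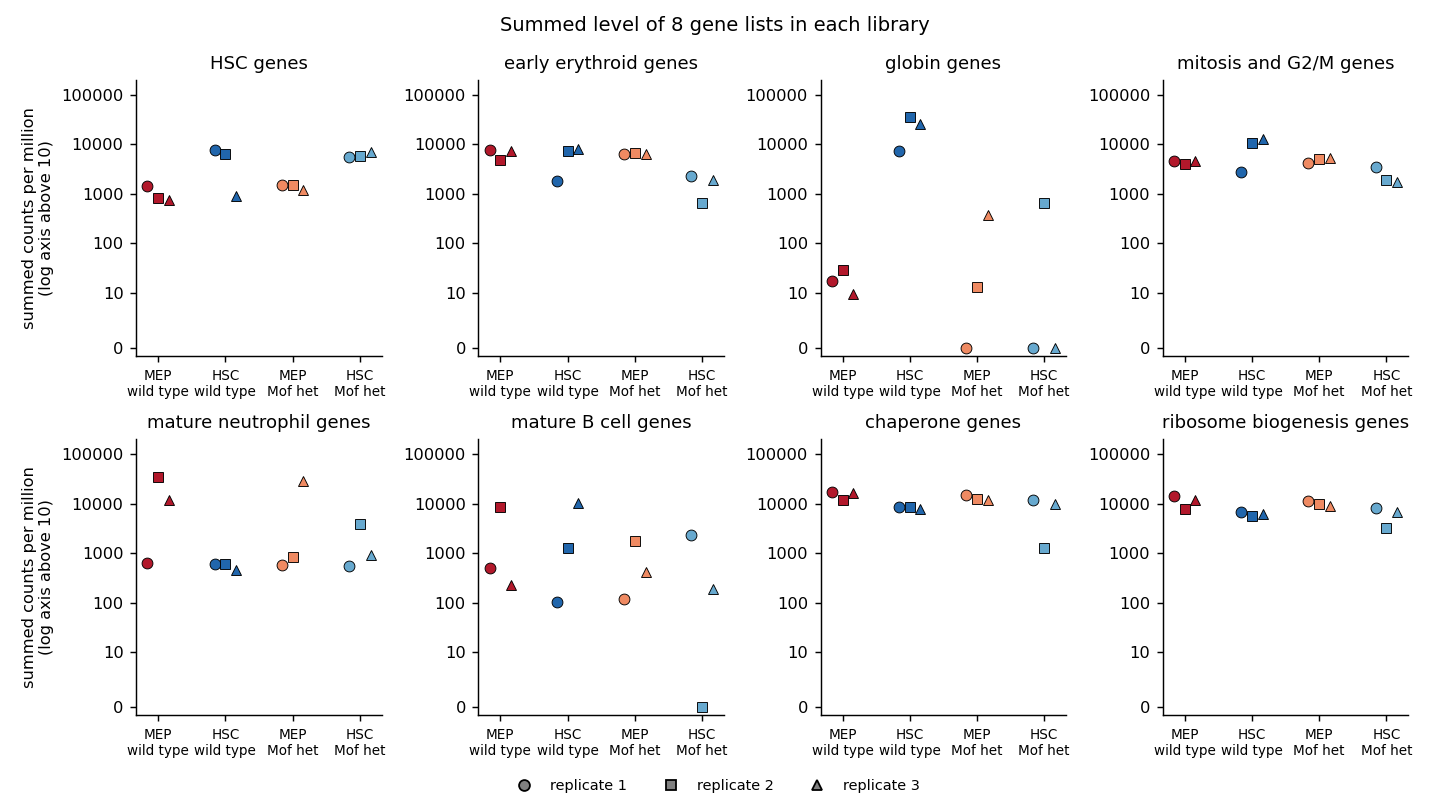
Summed level (CPM, log axis above 10) of 8 gene lists in each library, with MEP left of HSC in wild-type and then in Mof heterozygous (Mof het) samples. Each point is a library, and its shape gives the replicate number. Wild-type HSC library 3 (883 CPM of HSC genes) sits at the level of the MEP libraries, and wild-type MEP libraries 2 and 3 stand out in mature neutrophil genes.

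Car1 and the adult beta globin Beta-s were the only genes that passed the test over 6 libraries, limma on log2(value + 1) with Benjamini-Hochberg adjustment at 0.05, which called 2 of 2273 genes tested (0.088%), 1 higher (0.044%) and 1 lower (0.044%). At an unadjusted p under 0.05 the same test gave 282 genes. Car1, an erythroid carbonic anhydrase (chr3:14766214-14808365, GRCm38.p6), had 1937, 1343 and 1827 CPM in MEP, against 0, 28.5 and 0 CPM in HSC. The HSC level rests on a single count, and all 3 MEP libraries lay far above it. Car1 rose by 5.57 ± 0.42 on the log2(value + 1) scale (SE, n = 3 each, adjusted p = 6.25e-06). From pooled counts, 344 in MEP and 1 in HSC, the ratio was 168, with an exact 95% interval of 29.9 to 6650 that covers counting error only. Without MEP libraries 2 and 3, which leaves a single MEP library assumed to vary like the others, Car1 had a difference of 5.77 and an adjusted p = 0.463. It passed in 20 of the 21 fits in which it was tested, with adjusted p from 4.54e-14 to 0.463.

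Count models on the recovered counts called more genes. The quasi-likelihood test of edgeR called 8 of 483 genes (1.66%), 3 higher (0.621%) and 5 lower (1.04%). DESeq2 called 13 of 789 (1.65%), 7 higher (0.887%) and 6 lower (0.76%). Car1 and Beta-s were in both sets. Prpf19, a core spliceosome and ubiquitin ligase subunit, had 352, 286 and 293 CPM in MEP, against 34.4, 28.5 and 65.4 CPM in HSC, and rose in edgeR (adjusted p = 0.0387) though not in limma (2.28, adjusted p = 0.0987). Among genes that fell in edgeR, the kinase Pim1, a survival factor induced by cytokines, had 88.1, 257 and 117 CPM in MEP, against 722, 912 and 458 CPM in HSC (adjusted p = 0.0240). The variant histone gene H3f3b had 951, 1286 and 1114 CPM in MEP, against 2269, 2536 and 2486 CPM in HSC (adjusted p = 0.0110). In each of these 3 genes the MEP and HSC libraries did not overlap, and all 3 were named after their values were seen.

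Without HSC library 3, limma called 13 of 2290 genes (0.568%). Higher in MEP (0.175%) were Car1, Prpf19, the metallothionein Mt1 and Tnfaip2, an exocyst-related protein induced by tumour necrosis factor. Lower (0.393%) were Beta-s, the HSC genes described below, Pim1, Gpr56, Tmem176b and Hist1h1c. Tnfaip2 had 335, 171 and 313 CPM in MEP, against 0, 0 and 32.7 CPM in HSC, with an adjusted p = 0.0175 without that library and 0.105 with it (0.00286 to 0.964 over all fits). Without MEP library 2 as well, which holds B cell genes too, 41 of 2260 genes were called, 13 higher and 28 lower.

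Both metallothionein genes were detected in MEP and had no count in HSC. Mt1 had 423, 143 and 420 CPM in MEP, against 0 CPM in all 3 HSC libraries. Its pooled level was at least 11.7-fold higher in MEP, set against a floor of 3 counts over the HSC group. In limma Mt1 had an adjusted p = 0.102 over 6 libraries and passed without HSC library 3 (adjusted p = 0.0171). Its difference was 3.51 in both fits. Mt1 entered the test through MEP alone and could not lie below. It passed in 8 of the 19 fits in which it was tested, with adjusted p from 0.000215 to 0.964. Mt2, its neighbour on chromosome 8, had 229, 57.1 and 127 CPM in MEP, against 0 CPM in HSC, a level at least 4.55-fold higher, and was under the minimum level for the test. Mt1 was also at 0 in the 3 Mof heterozygous HSC libraries, where MEP had 207, 79.9 and 205 CPM. Metal response elements are the sites at which the zinc-sensing factor Mtf1 is known to bind metallothionein promoters. The Mt2 promoter is shown because both metallothionein genes had counts in every MEP library and none in HSC. It is 250 bases before the RefSeq start (chr8:94172368-94172617, GRCm38.p6, plus strand), with matches to TGCACNC or TGCGCNC on either strand in capitals:
Mt2: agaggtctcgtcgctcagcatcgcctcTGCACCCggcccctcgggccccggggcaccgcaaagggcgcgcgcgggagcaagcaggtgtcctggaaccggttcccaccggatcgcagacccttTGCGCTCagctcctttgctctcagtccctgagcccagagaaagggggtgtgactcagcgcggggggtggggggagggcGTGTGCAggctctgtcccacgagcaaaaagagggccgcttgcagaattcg
It holds 3 matches, none overlapping another, and 21.4% of 32851 RefSeq promoter windows of that length hold at least 1. A match is a description of these letters and not evidence of binding.

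Other early erythroid genes lay higher in MEP, with a wide spread. Of 15 listed early erythroid genes tested, Car1 passed, and the median difference was 0.85, against 0.09 over all genes tested. In 3 of the 15 all MEP libraries lay above all HSC libraries, against 12.6% of all genes tested. Without HSC library 3 it was 6 of 14, against 20.2%. The median was 1.06 without HSC library 3, 1.16 without MEP library 2 and 0.04 without MEP library 3. Apoe, a lipid carrier made by erythroid progenitors, had 757, 714 and 615 CPM in MEP, against 309, 285 and 65.4 CPM in HSC (1.75, adjusted p = 0.172). Klf1, the master regulator of erythroid genes, had 159, 143 and 147 CPM in MEP, against 0, 114 and 0 CPM in HSC. Gata1 had 264, 57.1 and 225 CPM in MEP, against 0, 85.5 and 0 CPM in HSC. For both factors the HSC counts came from library 2 alone, the library with the highest globin level. The erythropoietin receptor gene Epor had 70.4, 85.7 and 97.7 CPM in MEP, against 34.4, 28.5 and 32.7 CPM in HSC. These HSC values are 1 count in each library. Car2, a carbonic anhydrase of many tissues, overlapped, with 1004, 743 and 1387 CPM in MEP and 894, 1596 and 949 CPM in HSC. The platelet genes were low in both populations: 3 of 21 were tested, none passed, and Pf4 had 264, 85.7 and 9.77 CPM in MEP, against 103, 57.0 and 0 CPM in HSC.

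**Figure D2:**
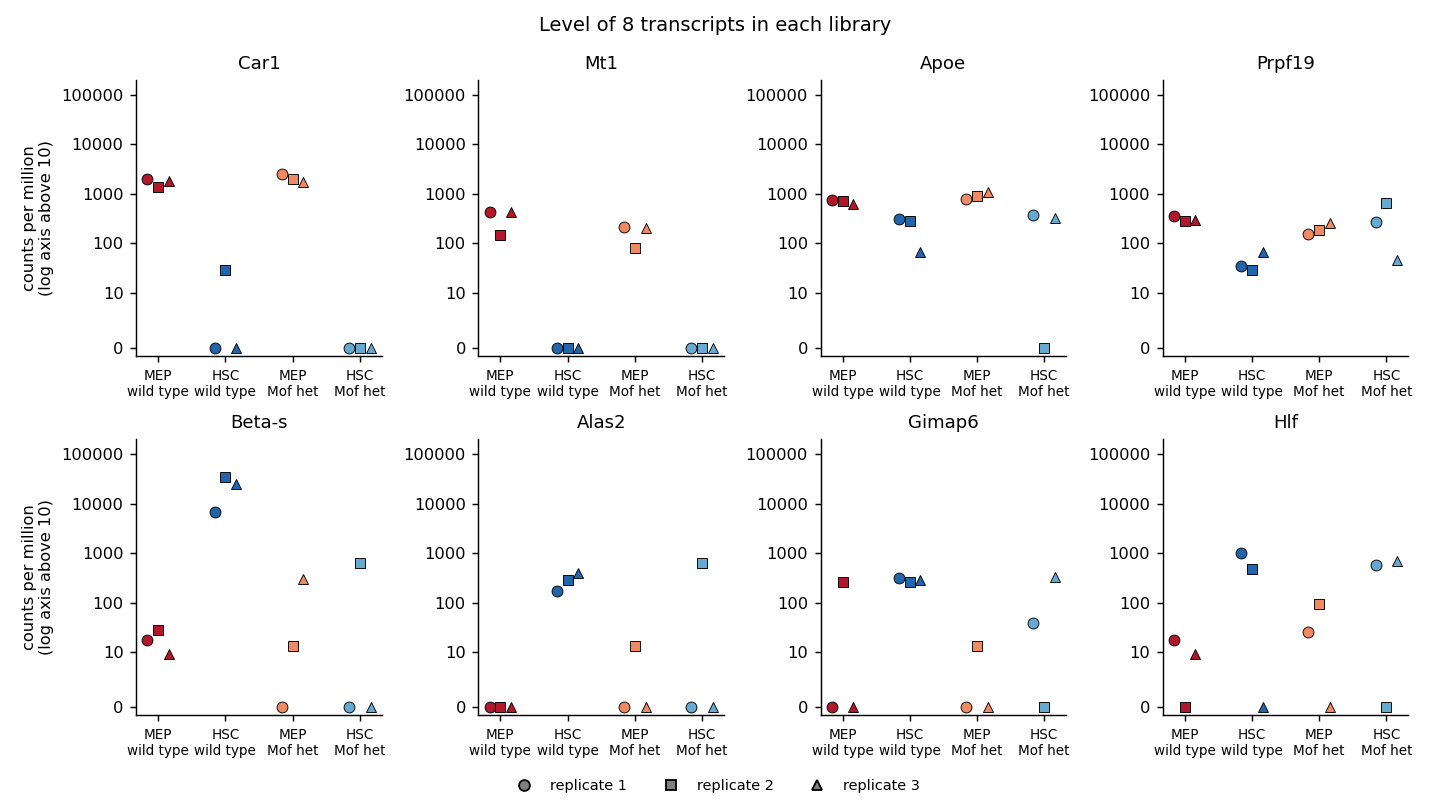
Level (CPM, log axis above 10) of 8 transcripts in each MEP and HSC library, with MEP left of HSC in wild-type and then in Mof heterozygous (Mof het) samples. Points are libraries and their shapes the replicate numbers. Car1 and Mt1 are high in MEP of both genotypes, and Beta-s is high in the 3 wild-type HSC libraries (6945 to 34108 CPM) and not in the deep Mof heterozygous HSC libraries.

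Globin and haem transcripts ran against the early erythroid genes and were high in HSC. Beta-s, which RefSeq lists as a synonym of the adult beta globin gene Hbb-bs (chr7:103826523-103827928), had 17.6, 28.6 and 9.77 CPM in MEP, a single count in each library, against 6945, 34108 and 25581 CPM in HSC. It fell by 8.62 ± 0.48 on the log2(value + 1) scale (SE, n = 3 each, adjusted p = 2.70e-07). From pooled counts, 3 in MEP and 2181 in HSC, the level in HSC over that in MEP was 1490, with an exact 95% interval of 509 to 7229. Alpha globin Hba-a1 had 0 CPM in the 3 MEP libraries, against 103, 256 and 360 CPM in HSC, at least 15.7-fold lower in MEP. The adult globin genes are near-identical copies whose reads the counting could split, so the level of each copy is uncertain. Alas2, the erythroid enzyme of the first step of haem synthesis, had 0 CPM in MEP, against 172, 285 and 393 CPM in HSC, at least 18.4-fold lower in MEP (adjusted p = 0.105). Slc25a37, the mitochondrial iron importer of red cell precursors, had 17.6, 57.1 and 58.6 CPM in MEP, against 103, 456 and 327 CPM in HSC. Slc4a1, the band 3 anion exchanger of the red cell membrane, had 0 CPM in MEP and 0, 769 and 491 CPM in HSC. The haem synthesis list as a whole did not pass: 0 of 8 genes tested were called, 3 had all MEP libraries below all HSC libraries (6.03% of all genes tested), and the median was -0.37, against 0.15 under spike-in scaling. The list of mature red cell genes, Slc4a1 among them, summed to 405, 286 and 488 CPM in MEP. In HSC it summed to 585, 1624 and 1243 CPM. All 4 genes tested overlapped between MEP and HSC, against 6.03% of all genes wholly below in MEP, and none passed in limma. Whether the globin in the HSC libraries came from the sorted cells or from red cell RNA was not tested. In bulk samples of this kind, fewer cells of a type and less RNA per cell cannot be told apart.

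The promoters of these 3 genes are shown because their transcripts were high in the same HSC libraries and at 1 count or none in MEP. Capitals mark matches to the GATA factor motifs AGATAA and TGATAA and to the CACCC box CCACACCC, on either strand, in the 250 bases before the RefSeq start (GRCm38.p6). The regions are chr7:103827929-103828178 on the minus strand for Hbb-bs, chr11:32283422-32283671 on the plus strand for Hba-a1 and chrX:150547167-150547416 on the plus strand for Alas2.
Hbb-bs: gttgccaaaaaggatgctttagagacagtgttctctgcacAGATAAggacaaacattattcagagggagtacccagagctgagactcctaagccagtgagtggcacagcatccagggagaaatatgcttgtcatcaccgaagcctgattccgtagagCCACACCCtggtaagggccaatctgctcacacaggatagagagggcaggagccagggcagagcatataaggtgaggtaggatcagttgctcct
Hba-a1: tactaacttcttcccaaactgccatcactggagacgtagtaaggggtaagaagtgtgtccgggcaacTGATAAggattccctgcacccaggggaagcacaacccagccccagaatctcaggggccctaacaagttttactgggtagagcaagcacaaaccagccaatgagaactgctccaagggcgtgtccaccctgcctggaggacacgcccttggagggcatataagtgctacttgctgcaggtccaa
Alas2: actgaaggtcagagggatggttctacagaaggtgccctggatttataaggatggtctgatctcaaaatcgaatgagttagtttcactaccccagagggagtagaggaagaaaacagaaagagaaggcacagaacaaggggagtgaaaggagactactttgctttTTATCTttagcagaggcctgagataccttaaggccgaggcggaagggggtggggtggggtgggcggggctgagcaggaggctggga
Each holds 1 GATA match, and Hbb-bs also holds 1 CACCC match, with no overlap between matches. Of all 32851 windows, 16.6% hold at least 1 of the GATA motifs and 3.20% the CACCC box. These are letters in a window and say nothing of binding in these cells.

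HSC genes leaned lower in MEP over 6 libraries, though 8 of the 10 tested overlapped between the groups. Of 10 listed HSC genes tested over 6 libraries none passed in limma, all 10 had a negative difference and the median was -1.34. In 2 of the 10 all MEP libraries lay below all HSC libraries, against 6.03% of all genes tested. DESeq2 on the same libraries called Hlf lower (-5.59, adjusted p = 0.0140, and 0.000907 to 0.964 over the fits tried). Without HSC library 3, Hlf, Ifitm1, Angpt1 and Ctla2a fell, and 11 of 11 tested had the MEP libraries below the HSC libraries, against 13.8% of all genes tested (median -2.42). That library was doubted because it lacks these very genes, so the calls of HSC genes, the count and the median without it are a description. Hlf, a transcription factor of HSC identity (chr11:90336535-90390917), had 17.6, 0 and 9.77 CPM in MEP, against 997, 484 and 0 CPM in HSC. Ctla2a had 106, 28.6 and 87.9 CPM in MEP, against 791, 541 and 65.4 CPM in HSC. The interferon-inducible membrane protein gene Ifitm1 had 106, 85.7 and 117 CPM in MEP, against 1031, 997 and 0 CPM in HSC. Angpt1, the ligand of the Tie2 receptor, had 88.1, 57.1 and 137 CPM in MEP, against 653, 855 and 0 CPM in HSC. The stem cell genes Procr and Mecom were at 0 CPM in MEP and at 68.8, 85.5 and 0 CPM (Procr) and 138, 28.5 and 0 CPM (Mecom) in HSC. Fli1, a factor of HSC and megakaryocytes, was low in MEP without resting on the doubted library, with 35.2, 28.6 and 39.1 CPM in MEP, against 206, 228 and 196 CPM in HSC (-1.93, adjusted p = 0.160).

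Gimap6 marked the 3 HSC libraries and 1 of the MEP libraries. It had 0, 257 and 0 CPM in MEP (0, 9 and 0 counts), against 309, 256 and 294 CPM in HSC (9 counts in each). MEP library 2 reached the HSC level, so the groups overlapped and the difference of -2.35 did not pass (adjusted p = 0.233). Without MEP library 2 Gimap6 fell (adjusted p = 0.0374), and it passed in 1 of 19 fits (adjusted p from 0.0374 to 0.711). That library also holds the B cell genes (8687 CPM) and most of the neutrophil genes, and their part in its Gimap6 was not tested. Gimap1 showed the same order, with 52.8, 229 and 19.5 CPM in MEP, against 516, 228 and 523 CPM in HSC (-2.09, adjusted p = 0.199).

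Transcripts of the sort's surface proteins were sparse: of 9 listed genes 2 were tested, both overlapped and neither passed in limma. Ly6a, the gene of Sca-1, had 0 CPM in MEP, against 241, 228 and 32.7 CPM in HSC, at least 10.9-fold lower in MEP, in the direction of the gates. Kit, positive in both gates, had 264, 229 and 322 CPM in MEP, against 688, 342 and 32.7 CPM in HSC. Cd48, which the HSC gate lacked, had 52.8, 85.7 and 87.9 CPM in MEP, against 0, 171 and 98.1 CPM in HSC. Il7r, absent from the MEP gate, had 0 CPM in MEP and 0, 171 and 393 CPM in HSC. The HSC libraries with Il7r and Cd48 are libraries 2 and 3, which also held B cell genes. Slamf1, the gene of CD150, had 0, 0 and 48.8 CPM in MEP, against 68.8, 0 and 0 CPM in HSC, and did not tell the groups apart at this depth. Cd34, negative in both gates, had 0 CPM in MEP and 103, 57.0 and 0 CPM in HSC. Fcgr3, the gene of CD16, went against the MEP gate, with 7 counts in MEP and 0 in HSC.

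Genes of protein synthesis and folding lay higher in MEP as groups of small differences, none of which passed singly in limma. Of 18 ribosome biogenesis genes tested, 12 had all MEP libraries above all HSC libraries and none the reverse, against 12.6% of all genes, and the median was 1.14. The nucleolar protein gene Nop56 had 863, 600 and 576 CPM in MEP, against 378, 199 and 327 CPM in HSC. Fbl, the methyltransferase fibrillarin, had 546, 229 and 498 CPM in MEP, against 103, 114 and 164 CPM in HSC. The summed list held 14354, 7801 and 11907 CPM in MEP and 6773, 5557 and 6248 CPM in HSC. In 9 of 21 chaperone genes all MEP libraries lay above the HSC libraries and in 1 below (median 0.69), and the list summed to 16943, 11887 and 16205 CPM in MEP, against 8698, 8549 and 7982 CPM in HSC. The cytosolic chaperone Hspa8 had 2096, 2057 and 2237 CPM in MEP, against 894, 1168 and 1243 CPM in HSC (0.95, adjusted p = 0.155). The inducible form of Hsp90, Hsp90aa1, had 3681, 1572 and 3663 CPM in MEP, against 825, 1311 and 1080 CPM in HSC (1.37, adjusted p = 0.128 in limma), and rose in DESeq2 (adjusted p = 0.0233, and 0.00614 to 0.999 over the fits tried). Hspa5, a chaperone of the endoplasmic reticulum, was the gene with all MEP libraries below (-0.35). Nucleotide synthesis genes had 5 of 10 above (median 0.92) and cytosolic ribosomal protein genes 29 of 76 above and none below (median 0.33); their reads can be split with processed pseudogenes, which makes single levels uncertain. Respiratory chain genes had 14 of 62 above and none below (median 0.39). Without MEP library 3 that list had 9 of 54 above, near the 15.1% of all genes, and 4 below (median 0.14). In Mof heterozygous libraries without the shallow HSC library, 13 of 63 respiratory chain genes lay wholly above, near the 19.9% of all genes. Other scalings moved the median of all genes tested to 0.25 (TMM), 0.05 (DESeq2 size factors) and 0.56 (spike-ins). The medians of these lists were above that of all genes under each scaling tried, while under spike-in scaling 6 of 21 ribosome biogenesis genes, 7 of 22 chaperone genes and 4 of 76 ribosomal protein genes lay wholly above, against 12.2% of all genes. The share of ribosomal protein genes (5.26%) was thus below that of all genes under this scaling and above it under total scaling (38.2%).

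**Figure D3:**
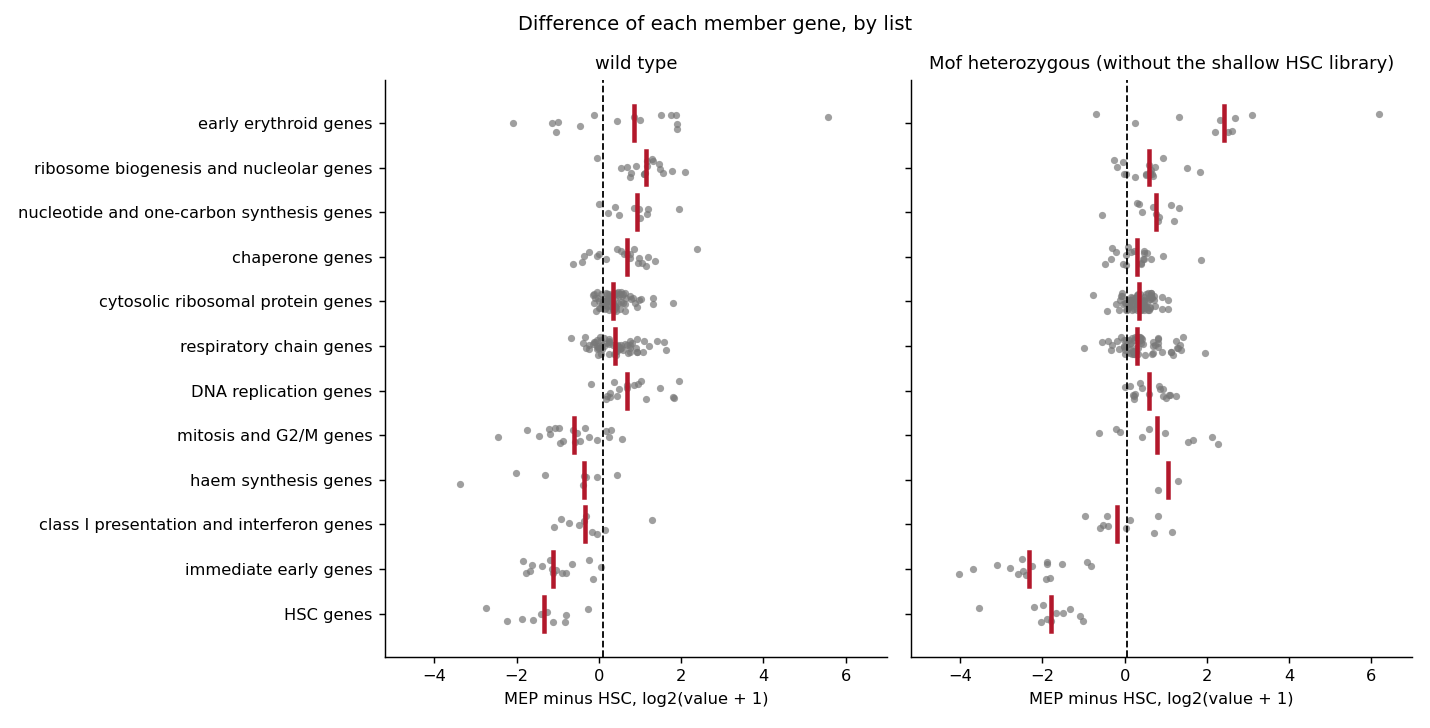
Difference of each member gene (MEP minus HSC, log2(value + 1) scale) in 12 lists. Wild-type libraries are on the left and Mof heterozygous libraries, without their shallow HSC library 2, on the right. Points are genes, red bars the list medians and the dashed line the median of all genes tested. Ribosome biogenesis genes (median 1.14 in wild type) lie right of the dashed line, and HSC and immediate early genes (medians -1.34 and -1.11) left of it.

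Immediate early genes, which cells switch on within minutes of a stimulus, lay lower in MEP. Of 15 tested none passed in limma, 14 had a negative difference, 4 had all MEP libraries below all HSC libraries (6.03% of all genes) and the median was -1.11. Jund, a subunit of the AP-1 transcription factor, had 229, 772 and 254 CPM in MEP, against 1238, 1054 and 1210 CPM in HSC (-1.62, adjusted p = 0.155). Its partner Jun had 933, 543 and 723 CPM in MEP, against 1788, 1054 and 1080 CPM in HSC. The zinc finger factor Klf6 had 335, 257 and 205 CPM in MEP, against 894, 570 and 491 CPM in HSC (-1.19, adjusted p = 0.219). The list summed to 2536, 5258 and 2286 CPM in MEP, against 10142, 7808 and 5234 CPM in HSC, so that MEP library 2 overlapped HSC library 3. Without HSC library 3, 10 of 14 genes lay wholly below, against 13.8% of all genes, with a median of -1.53. Without MEP library 2, 9 of 14 lay wholly below, against 11.5% of all genes, and 2 passed in limma (median -1.36). Class I antigen presentation genes included H2-K1, with 863, 829 and 967 CPM in MEP, against 1616, 1938 and 1538 CPM in HSC, which fell in edgeR (adjusted p = 0.0238) and not in limma (adjusted p = 0.181). B2m, the light chain shared by class I molecules, had 1550, 2229 and 1563 CPM in MEP, against 2854, 2878 and 3075 CPM in HSC (-0.73, adjusted p = 0.219). Of the 10 tested genes of that list, 2 lay wholly below in MEP (6.03% of all genes) and none passed in limma. The median was -0.33, against -0.49 without HSC library 3 and 0.10 under spike-in scaling. Without MEP library 2 it was -0.67, with 6 of 11 genes wholly below, against 11.5% of all genes. Under spike-in scaling no immediate early gene lay wholly below (median -0.66).

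The DNA replication and mitosis lists had medians of opposite sign over the 6 libraries. The mitosis median moved with the setting, and the HSC libraries differed among themselves. DNA replication genes had a median difference of 0.68, with 17 of 18 positive and none passing in limma. In 2 of the 18 the MEP libraries lay wholly above, a share near the 12.6% of all genes. Leaving out HSC library 3 gave 8 of 19, against 20.2%, with a median of 0.87. Mitosis and G2/M genes had a median of -0.60, with 3 of 20 wholly below in MEP, against 6.03% of all genes, and none passing in limma. Without HSC library 3 the median was -0.11, with 2 of 17 genes wholly above and 2 wholly below, against 20.2% and 13.8% of all genes. Under spike-in scaling the median was near 0. That list summed to 4667, 4001 and 4669 CPM in MEP, against 2785, 10344 and 12954 CPM in HSC. HSC library 1 lay below the MEP libraries and HSC libraries 2 and 3 above them. Mki67, a protein of dividing cells, had 352, 429 and 264 CPM in MEP, against 172, 1653 and 1799 CPM in HSC. The HSC libraries high in mitosis genes are those high in Slc4a1 and B cell genes, whose part in this difference was not tested.

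Mature neutrophil genes were high in MEP libraries 2 and 3. The calgranulin genes S100a8 and S100a9, abundant in mature neutrophils, had 17.6, 9773 and 4620 CPM (S100a8) and 70.4, 11887 and 4161 CPM (S100a9) in MEP, against 0, 0 and 0 CPM and 0, 0 and 32.7 CPM in HSC. MEP library 1 held a single S100a8 count. Of 11 neutrophil genes tested none passed in limma, though DESeq2 called S100a9 higher (adjusted p = 0.0127), and 5 lay wholly above, against 12.6% of all genes (median 1.96, or 2.97 with the 8 genes at 0 in HSC set to their bounds). The 8 genes at 0 in HSC entered the test through MEP alone and could not lie below. The shares for this list are therefore a description. Without MEP library 2 the list had 4 of 5 genes wholly above and without MEP library 3 it had 6 of 12, against 19.2% and 15.1% of all genes. Without both, 1 gene of the list was left to test, and its libraries overlapped (median -0.09). Mpo, the myeloperoxidase of granulocyte precursors, had 88.1, 200 and 918 CPM in MEP, against 34.4, 0 and 0 CPM in HSC (2.98, adjusted p = 0.172 in limma), and rose in DESeq2 (adjusted p = 0.0457, and 0.00840 to 0.437 over the fits tried). Plac8, a marker of lineage-primed progenitors, had 564, 286 and 781 CPM in MEP, against 68.8, 114 and 294 CPM in HSC (1.69, adjusted p = 0.219). Among 22 blood transcription factor genes, 4 lay wholly above in MEP (Klf1, Ldb1, Myb and Myc) and Fli1 wholly below, against 12.6% and 6.03% of all genes. Leaving out HSC library 3 gave 6 above and 6 below of 23, against 20.2% and 13.8%. Myb, needed for the growth of progenitors, had 1250, 686 and 723 CPM in MEP, against 275, 627 and 327 CPM in HSC (1.09, adjusted p = 0.263). Gata2 had 387, 314 and 537 CPM in MEP, against 688, 456 and 0 CPM in HSC, and its difference was 1.01 with HSC library 3 and -0.45 without it.

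The remaining lists held no call in limma over 6 libraries, and their counts stand against 12.6% of all genes wholly above in MEP and 6.03% wholly below. Quiescence and Cdk inhibitor genes had a median of -1.03 over 7 genes, with 1 wholly below in MEP. Without HSC library 3 the median was -1.15, with 3 of 8 wholly below, against 13.8% of all genes. Without MEP library 2 it was -1.61, with 4 of 7 wholly below, against 11.5% of all genes. Lymphoid priming genes had a median of -0.61 over 8 genes, with 1 wholly below, and -0.17 over 6 genes without HSC library 3. Without MEP library 2 their median was -1.28 over 8 genes. Glycolysis genes had a median of 0.54 over 9 genes and proteasome genes 0.21 over 26, with 2 and 3 genes wholly above, and 0.32 and 0.27 without HSC library 3. Without MEP library 3 these medians were 0.37 and -0.07. Metal and iron handling genes, Mt1 among them, had a median of 0.26 over 4 genes. The MSL and NSL complexes, in which the protein of Kat8 works, had a median of 0.01 over 4 genes. Of mature B cell genes 14 were tested and all overlapped, with a median of -0.33 over 6 libraries, against 1.01 without HSC library 3 and -1.48 without MEP library 2. T and NK cell genes summed to 17.6, 429 and 29.3 CPM in MEP, against 68.8, 798 and 1341 CPM in HSC. Macrophage and dendritic cell genes had 1 gene tested, and mast cell, basophil and stromal genes none.

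The same genes were measured in the wild-type populations between HSC and MEP. Car1 averaged 9.50 ± 16.5 CPM in HSC and 54.0 ± 93.6 CPM in the multipotent progenitors MPP2 (SD, n = 3 each). It had 0, 0 and 48.0 CPM in MPP3 and no count in MPP4. The common myeloid progenitors (CMP) averaged 446 ± 124 CPM and MEP 1702 ± 316 CPM. The lowest MEP library (1343 CPM) lay above the highest CMP library (576 CPM), and the 4 LSK populations overlapped. Mt1 was at 0 in HSC, MPP2 and MPP3, and averaged 26.2 ± 26.2 CPM in MPP4. It reached 94.0 ± 19.3 CPM in CMP and 329 ± 161 CPM in MEP. Apoe averaged 220 ± 134 CPM in HSC, 730 ± 124 in CMP and 696 ± 72.8 in MEP, and the last pair did not differ beyond their spread. CMP and MEP libraries carry the same pool label, so the difference in Car1 between them is within that label. Beta-s spread over orders of magnitude within populations, with 27006, 44736 and 354 CPM in MPP2 and 3834, 14110 and 288 CPM in MPP3. MPP4 libraries held 339, 25353 and 145177 CPM, and CMP libraries 197, 26.4 and 0 CPM. Its level was high in at least 1 library of every LSK population and low in all 6 libraries of the late pool. Gimap6 averaged 287 ± 27.3 CPM in HSC, 180 ± 99.3 CPM in MPP4, 13.1 ± 13.1 CPM in CMP and 85.7 ± 148 CPM in MEP. It was at 0 in MPP2 and MPP3, whose libraries held only 2764 to 20839 counts.

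**Figure D4:**
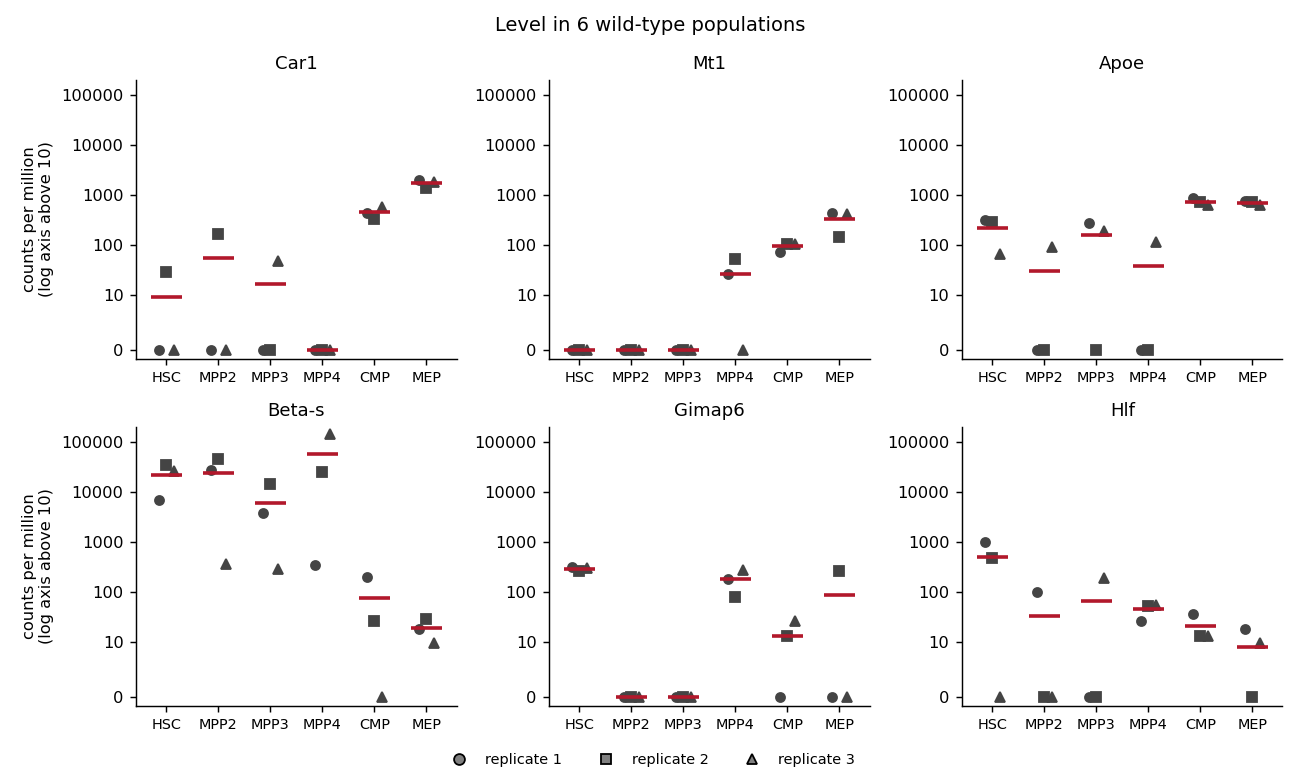
Level (CPM, log axis above 10) of 6 transcripts in the 3 libraries of each wild-type population, in the order from stem cell to MEP. Points are libraries, shapes the replicate numbers and red bars the means. Car1 and Mt1 are highest in MEP (means of 1702 and 329 CPM), Hlf in HSC libraries 1 and 2, and Beta-s varies within the MPP populations.

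The Mof heterozygous libraries gave the same comparison in other samples. With all 6, limma called 6 of 2317 genes (0.259%), 4 higher (0.173%) and 2 lower (0.0863%), but heterozygous HSC library 2 held only 1577 counts. Without it, 45 of 2342 genes were called (1.92%), 29 higher and 16 lower in MEP, and edgeR called 61 of 1785 (3.42%), 28 higher (1.57%) and 33 lower (1.85%). Of the 45 genes called in limma, 44 were tested in wild-type libraries and 44 had the same sign there, 28 of 28 higher and 16 of 16 lower. Over all 1870 genes tested in both, 59.4% were positive in wild type and 58.0% in heterozygous libraries. Car1 had 2502, 2010 and 1687 CPM in heterozygous MEP, against 0 CPM in all 3 heterozygous HSC libraries, and rose (adjusted p = 3.20e-06 without the shallow library). Of the early erythroid genes 5 of 10 tested rose (1.24% of all genes), among them Apoe (765, 905 and 1071 CPM in MEP, against 366 and 326 CPM in HSC), the water channel Aqp1 and the erythroid membrane protein Ermap. Of the HSC genes 4 of 11 tested fell (0.683% of all genes), among them Hlf, Ifitm1 and Ifitm3. Hlf had 25.9, 93.2 and 0 CPM in heterozygous MEP, against 578 and 699 CPM in the deep heterozygous HSC libraries. Of the immediate early genes 5 of 16 fell (0.683% of all genes), including Jun, Junb, Jund and Klf6. Ribosomal protein genes had 6 of 76 called higher (1.24% of all genes).

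Genes that separated the wild-type groups also did so in the heterozygous libraries at a higher rate than others. The heterozygous counts and median given here leave out the shallow HSC library, so fewer HSC libraries were compared than in wild type. Of the 266 genes that lay wholly above in wild-type MEP and were tested in heterozygous libraries, 118 (44.4%) lay wholly above there too, against 22.5% of all 1870 genes tested in both. Those 118 were 28.0% of the heterozygous genes wholly above. Of 96 genes wholly below, 30 (31.3%) were wholly below in heterozygous libraries, against 14.9% of all, and they were 10.8% of that list. In Mof heterozygous samples the ribosome biogenesis list had 9 of 18 genes wholly above in MEP, against 19.9% of all genes, and the immediate early list 11 of 16 wholly below, against 16.8%. The mitosis list had a median of 0.80 there, against -0.60 in wild type; no gene of that list passed the test of the difference between genotypes.

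**Figure D5:**
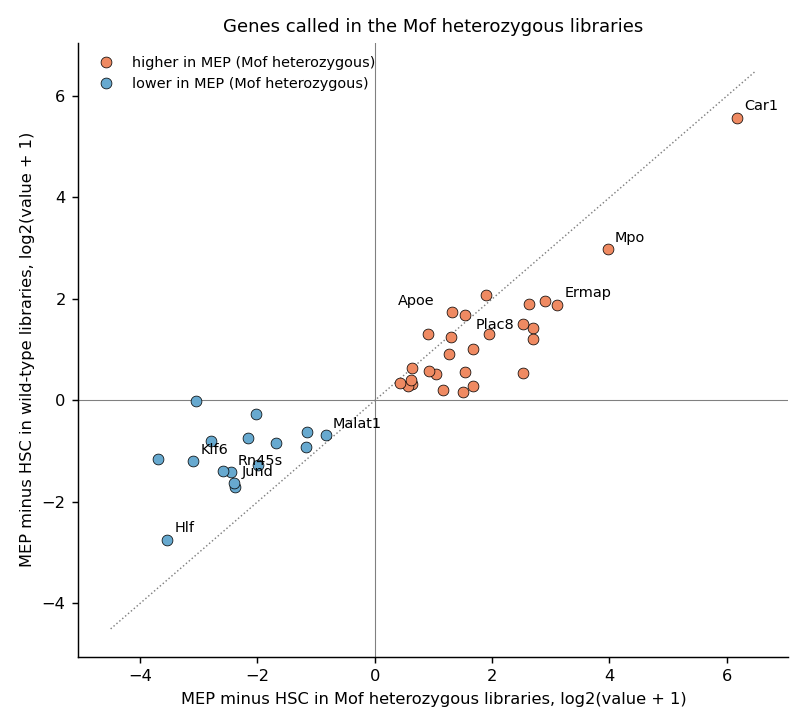
Difference (MEP minus HSC, log2(value + 1) scale) in wild-type libraries against that in Mof heterozygous libraries, for the 44 genes called in the latter (without the shallow HSC library) and tested in both. Points are genes, the dotted line marks equal values, and some genes are named. All 44 points lie in the quadrants of equal sign, with Car1 farthest up at 5.57 and 6.18.

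The test of the difference between genotypes, an interaction term in limma over 12 libraries, called 1 of 2220 genes (0.045%), and edgeR called 1 of 957. Both calls were Beta-s. In Mof heterozygous samples Beta-s had 0, 13.3 and 308 CPM in MEP, against 0, 634 and 0 CPM in HSC, where the 634 CPM are 1 count of the shallow library. The wild-type HSC levels of 6945 CPM and more had no counterpart in the deep heterozygous HSC libraries. Genotype and pool cannot be told apart.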

How the data were processed

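Sorted bone marrow populations were profiled by CEL-Seq2. The submitters' processing notes name BWA 0.6.2-r126 and the mouse build mm10. How reads were counted, how molecular identifiers were used and which annotation served are not stated there. Each deposited table holds a signal for every gene. In each library used, 100% of the positive values were whole multiples (within 0.01 counts) of the smallest, as counts divided by a size factor would be. Whole counts were recovered by dividing each column by its smallest positive value. In the wild-type MEP table the spike-in names are missing and 16696 gene names are shifted, so names were taken by position from the HSC table. Spearman's rho with wild-type CMP, taken over genes that are not independent of each other, was then 0.902, against 0.352 as deposited. The 92 spike-ins were left out of totals.

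Counts were scaled to a common total of 35045. The design foresaw limma (3.58.1, R 4.3.3, intensity trend) on log2(value + 1), which was used on the 6 libraries for genes averaging 3 or more, two-sided, with Benjamini-Hochberg adjustment over all genes tested at 0.05. Fold changes on this scale understate those of low genes. Alternatives were other scalings, pseudocounts of 0.5 and 3, other filters, 12 or 18 wild-type libraries, edgeR 4.0.16, DESeq2 1.42.0 and leaving out each library. Spike-in scaling and leaving out pairs of libraries were chosen after seeing the data. CPM are counts scaled to a gene total of 1000000. Where a group had no count, folds were set against a floor of 3 counts in all its libraries together, and intervals cover counting error only. Both limma and edgeR were tested on simulated data. Genes were named by rule (Gimap6, Car1, Mt1, called genes, called and most abundant members of 32 lists, surface genes, Kat8); other genes named were chosen after their values were seen. Members, lists and alternatives were chosen with earlier results of these data known. Some genes are not reported here.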

Additional observations from a re-analysis of the deposited data

Results flagged for a closer look

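The difference between MEP and HSC in Beta-s differed between genotypes. The contrast in Mof heterozygous libraries minus that in wild-type libraries was 8.47 ± 1.49 on the log2(value + 1) scale (SE, limma interaction term over 12 libraries, adjusted p = 0.0153), the only one of 2220 genes tested that passed. Beta-s had 0, 13.3 and 308 CPM in heterozygous MEP, against 0, 634 and 0 CPM in heterozygous HSC, and 17.6, 28.6 and 9.77 CPM in wild-type MEP, against 6945, 34108 and 25581 CPM in wild-type HSC. The term passed in 10 of 13 fits, with values from 7.38 to 13.1. It had adjusted p = 0.0702 without wild-type HSC library 2, and 0.360 and 0.0775 without heterozygous HSC libraries 1 and 3 in limma. Genotype and pool cannot be told apart.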

How the results depend on the processing

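Over 6 wild-type libraries 2 genes passed, and 2 also passed under TMM, DESeq2 size factors, totals without neutrophil genes and both other pseudocounts (3 with all 18 wild-type libraries). The count was 6 with a mean value of at least 1, 29 with no filter, 7 with a mean of at least 10, 4 with 12 wild-type libraries, 8 in edgeR, 13 in DESeq2 and 13 under spike-in scaling. It was 41 without HSC library 3 and MEP library 2, and 1 without MEP libraries 2 and 3. Leaving out 1 library gave 2 to 13 calls, with 13 without HSC library 3, 9 without HSC library 1 or MEP library 2 and 7 without MEP library 1. Among the named genes 2 passed, against 4 with a mean of at least 1, 12 with no filter, 5 in DESeq2, 7 under spike-in scaling, 11 without HSC library 3 and MEP library 2, 1 without MEP libraries 2 and 3, and 2 to 6 without 1 library. In Mof heterozygous libraries 6 genes passed, against 51 in edgeR and 2 to 45 without 1 library, with 45 without the shallow HSC library and 34 without HSC library 3. The difference between genotypes had 1 call in edgeR too and 0 to 1 without 1 library (0 without wild-type HSC library 2 and without heterozygous HSC library 1 or 3, in limma, where all libraries gave 47 genes at an unadjusted p under 0.05). No direction reversed in 32 single-gene results, a chosen set that leaves out other genes named above. Outside that set, Gata2 (1.01 to -0.45) and Kit (0.23 to -0.79) changed sign without HSC library 3. The cause of these changes was not tested. No paired analysis was possible because the libraries are numbered differently in the MEP and HSC headers and no label pairs them. With 15 cells and 29086 to 102375 counts in a library, a transcript at 9.77 to 34.4 CPM rests on 1 count.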
